A study of Homo sapiens with 9 samples.

Results

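The genes described here encode the receptors that hold a cell to the matrix and the sheet of matrix they bind: 12 integrin α chains, 6 integrin β chains, 5 laminin α chains, 3 laminin β chains, 2 laminin γ chains, 2 nidogens, the heparan sulphate proteoglycans HSPG2 (perlecan) and AGRN (agrin), dystroglycan (DAG1), 4 syndecans and the tetraspanin CD151. They were chosen by name as a functional group, 38 of the 26475 genes in the table, and 34 of the 38 had enough counts to be tested, against 13784 genes tested in all. RNA was sequenced from hTERT_RPE1 cells, a human retinal pigment epithelial line immortalised with telomerase, 24 h after seeding, in 9 libraries. Control cells carried the empty pLKO_1 vector and stood on fibronectin-coated glass. The sh_PIP4K2B cells stood on the same glass and carried a hairpin against PIP4K2B, a lipid kinase that acts on PtdIns5P, with 1 library for each of 3 hairpins. Soft cells carried the same vector as Control and stood on fibronectin-coated gels of 2.3 kPa, so that the Control and Soft groups differ in the substrate alone by their labels. The control vector is called empty in 1 label and a control shRNA in another, so that whether Control and Soft cells made a hairpin is unsettled. All 9 libraries come from 1 cell line, and all cells met fibronectin, the ligand of the α5β1 integrin, so that no library shows the cells on a laminin or an uncoated surface.

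A basement membrane is built from laminins, each a trimer of an α, a β and a γ chain, joined to a type IV collagen network through nidogens and perlecan. Cells hold it through integrins, which are pairs of an α and a β chain, through dystroglycan, and through syndecans, whose heparan sulphate chains bind laminin and fibronectin. Retinal pigment epithelium rests on such a membrane, and the chain a cell makes sets which laminin it can lay down and which ligand it can hold.

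The targeted gene was lower in each hairpin library than in any other. On the scale of CPM, counts per library total after TMM scaling, PIP4K2B was between 119.5 and 123.7 CPM in Control, between 119 and 126.7 CPM in Soft, and 48.4, 40.9 and 36.6 CPM with hairpins #1, #2 and #3. Library totals ran from 19217346 to 24020799 counts, in which 3 counts, taken as the limit of detection in 1 library, correspond to 0.131 to 0.148 CPM. That limit and the spread of a count cover counting error only. Of 14 markers of retinal pigment epithelium, RGR, TTR and DCT had no count in any library, RPE65 and TYR were at or below 0.0494 CPM in every library, and RDH5, MITF and OTX2 alone reached 1 CPM in Control. Most defining transcripts of the tissue the label names were thus at or near 0. CDH5, PTPRC and 5 other leukocyte and endothelial markers summed to at most 1.44 CPM in Control, to at most 1.24 CPM with a hairpin and to at most 6.67 CPM on the gel, and PECAM1 alone was between 4.34 and 5.33 CPM in Soft. In bulk RNA a change in the RNA of each cell and a change in the share of cells that make it cannot be told apart. The labels do not say that libraries of a group came from separate cultures, so that p-values measure the spread between these libraries, which may be technical, and in sh_PIP4K2B also the spread between hairpins.

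The 250 bases upstream of 3 start sites are shown because the genes behind them make a receptor chain for laminin (ITGA6) and 2 laminin chains (LAMA3 and LAMA5) that moved in different directions on the gel. They are RefSeq windows on GRCh38.p14, printed 5′ to 3′ on the strand of the gene, and none of their bases lies in an exon annotated in GENCODE. Capitals mark matches on either strand to TGANTCA, the AP-1 motif, or to ACGTG, the core of the hypoxia response element.

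ITGA6, chr2:172427086-172427335, plus strand: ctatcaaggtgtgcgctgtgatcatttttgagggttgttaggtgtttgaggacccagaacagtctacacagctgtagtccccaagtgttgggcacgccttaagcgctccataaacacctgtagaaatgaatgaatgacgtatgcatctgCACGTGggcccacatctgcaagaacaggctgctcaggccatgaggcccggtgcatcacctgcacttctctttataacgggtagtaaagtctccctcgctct
LAMA3, chr18:23872770-23873019, plus strand: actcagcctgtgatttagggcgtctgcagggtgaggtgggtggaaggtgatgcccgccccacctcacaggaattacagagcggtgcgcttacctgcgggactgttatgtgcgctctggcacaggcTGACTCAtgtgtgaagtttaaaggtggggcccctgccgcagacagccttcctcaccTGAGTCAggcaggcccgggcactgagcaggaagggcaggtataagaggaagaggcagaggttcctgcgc
LAMA5, chr20:62367313-62367562, minus strand: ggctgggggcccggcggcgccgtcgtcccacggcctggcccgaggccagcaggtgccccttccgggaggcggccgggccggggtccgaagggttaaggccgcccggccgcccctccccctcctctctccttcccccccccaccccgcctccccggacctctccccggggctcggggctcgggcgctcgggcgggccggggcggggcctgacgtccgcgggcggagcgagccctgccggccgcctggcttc

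The LAMA3 window holds AP-1 letters 125 and 69 bases before the start, and LAMB3, which encodes the β chain that joins LAMA3 in laminin-332, holds them in 1 of its 3 windows, 67 bases before that start. Among all 35116 windows, 6.57% hold them. The ITGA6 window holds ACGTG on both strands at 1 overlapping place, 101 and 100 bases before the start, and 18.5% of all windows hold these letters. The other ITGA6 window, chr2:172427336-172427585, which has annotated exon bases, holds them 169 bases before its start. The LAMA5 window holds neither, nor GGAATG, the TEAD motif, which is in 11.9% of all windows. Of the 38 genes 28 had a window, and TEAD letters were found in 4 of these 28 (ITGA5, ITGA10, ITGB1 and LAMA2), AP-1 letters in 2 and ACGTG in 2. The 28 genes had 37 windows, so that these counts of genes and the shares of windows above are in different units. A match is a description of the letters only. The printed LAMA3 start is the inner one of that gene, which spans chr18:23689453-23956222, and counts per gene do not say which start was used.

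On the gel the strongest rises were in the collagen-binding integrin chains ITGA10 and ITGA11, in the β4 chain ITGB4, in the laminin chains LAMA4 and LAMA5, in nidogen-2 and in syndecan-3, while the laminin receptor chain ITGA6, the laminin chain LAMA3 and the β6 chain ITGB6 fell. In a quasi-likelihood test over all 9 libraries (edgeR, adjusted over all genes, threshold 0.01), 10 of 34 genes passed in Soft against Control, or 29.4%, against 30.6% of all genes tested, so the group as a whole was called no more often than the background. Of these 7 were higher, where 15.8% of all genes were called higher, and 3 were lower, where 14.8% were called lower. With a hairpin 1 of 34 passed, LAMA5, which was lower. All genes together were called in 5.54% of cases in that comparison and called lower in 2.77%. At an unadjusted p below 0.05 there were 9 genes of the 34 in sh_PIP4K2B against Control, where 33.2% of all genes passed, and 8 of the 9 were lower, where 14.2% of all genes passed and were lower. DESeq2 called 5, of which 1 was higher, where it called 15.0% of all genes. Both comparisons share the 3 Control libraries, so that the direct contrast of Soft with sh_PIP4K2B is the test of whether the 2 effects differ. It called 11 of 34, or 32.4%, against 30.0% of all genes. Of these 10 were higher in Soft, against 14.5% of all genes, and SDC2 alone was lower, against 15.5%.

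The spread behind these tests was uneven. The median SD of the log2 CPM over the 34 genes was 0.070 in Control, 0.052 in Soft and 0.508 among the 3 hairpins, against 0.081, 0.073 and 0.355 over all genes. The pooled fit gave all groups 1 spread per gene. When the Soft and Control libraries were fitted alone, 30 of 34 genes passed, 17 higher and 13 lower, where 70.7% of all genes passed. The count in Soft against Control was 17 without hairpin #1, which enters it through the shared spread, the scaling and the filter, and 45.6% of all genes then passed. In sh_PIP4K2B against Control the count was 6 without hairpin #1, 6 without #2 and 4 without #3, where 11.9%, 14.4% and 12.7% of all genes passed. It was 0 when 1 Control library or 1 Soft library was left out, where 0.472% to 2.42% of all genes passed. Of the 6 genes called without hairpin #1, LAMA4, NID2 and SDC3 were higher than Control and ITGA7, LAMA5 and SDC4 were lower. Soft against sh_PIP4K2B gave 20 without hairpin #1, where 38.4% of all genes passed, and 6, 7 and 7 without Soft libraries 1, 2 and 3, where 17.05%, 17.1% and 16.8% did. It gave 10 without hairpin #2 and 12 without #3, where 34.0% and 37.7% of all genes passed. The share of all genes called thus moved in the direction of these counts, with 1 exception. Without hairpin #2 the count of Soft against sh_PIP4K2B fell from 11 while the share rose from 30.0%.

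Without a model, 18 genes were higher in all 3 Soft libraries than in any Control library (52.9%, against 40.4% of all genes) and 13 were lower (38.2%, against 39.1%). In sh_PIP4K2B none was higher in all 3 libraries, where 17.4% of all genes were, and 9 were lower (26.5%, against 16.7%): CD151, DAG1, ITGA4, ITGA7, ITGB5, ITGB6, LAMA3, LAMA5 and SDC4. Between Soft and sh_PIP4K2B, 14 were higher in Soft (41.2%, against 27.3% of all genes) and ITGA6 and SDC2 were lower, where 26.7% of all genes were.

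**Figure D1:**
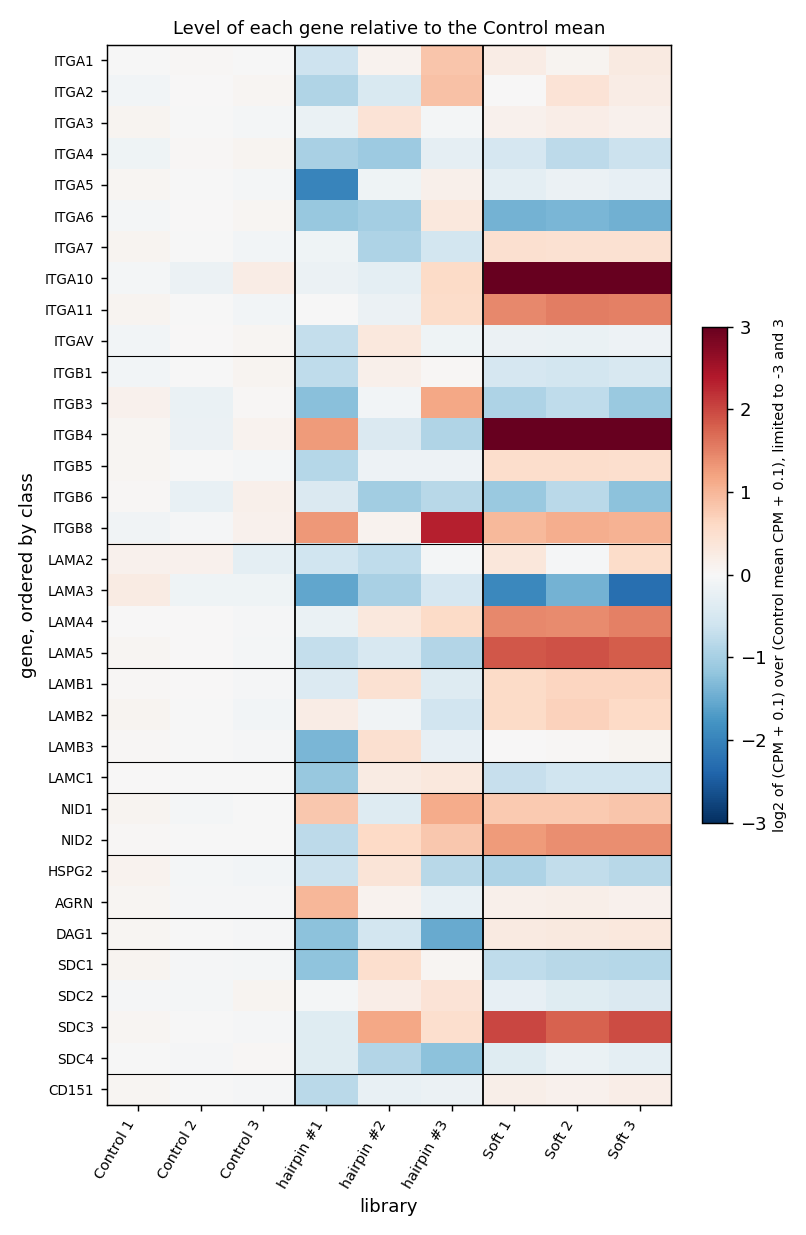
Level of each of the 34 tested genes (rows, grouped by class) in each of the 9 libraries (columns), as the log2 of CPM plus 0.1 over the Control mean plus 0.1, with colours limited at -3 and 3. The Soft columns resemble each other, with ITGA10, ITGB4, LAMA5 and SDC3 darkest red, while the 3 hairpin columns differ from one another and hairpin #1 is mostly blue.

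Integrin α chains decide which ligand an integrin holds. Those that pair with β1 to bind collagen are ITGA1, ITGA2, ITGA10 and ITGA11. ITGA10 was at 5.73, 5.27 and 6.99 CPM in Control, 5.30, 4.91 and 8.997 CPM with hairpins #1 to #3, and 65.5, 74.5 and 72.2 CPM in Soft. The lowest Soft library was several times the highest of the other 6, and the log2 fold change in Soft was 3.56 ± 0.23 (SE, n = 3 libraries a group, edgeR adjusted p = 1.09e-05). ITGA11, the main collagen receptor chain of fibroblasts, was at 519, 489 and 460 CPM in Control and at 1330, 1421 and 1396 CPM in Soft, a log2 rise of 1.497 ± 0.18 (edgeR adjusted p = 2.20e-04). With the hairpins ITGA11 was at 485, 434 and 719 CPM, so that its range spans that of Control. ITGA1 and ITGA2 did not pass, with log2 fold changes of 0.19 and 0.22 in Soft. In the direct contrast with sh_PIP4K2B, ITGA10 was higher in Soft by 3.47 ± 0.23 and ITGA11 by 1.34 ± 0.18 (edgeR adjusted p = 1.51e-05 and 4.14e-04).

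The chains that serve laminin are ITGA3, ITGA6 and ITGA7. ITGA6, which forms α6β1 and the hemidesmosome receptor α6β4, was at 268, 278 and 287 CPM in Control and at 104, 108 and 102 CPM in Soft, a log2 fold change of -1.41 ± 0.33 (edgeR adjusted p = 0.00726). This call was lost without any 1 Control or Soft library, with adjusted p up to 0.0298. With the hairpins ITGA6 was at 126, 138 and 347 CPM, that is, 2 libraries well under Control and hairpin #3 above it, and the mean did not differ beyond this spread (log2 fold change -0.45 ± 0.33, edgeR adjusted p = 0.373). Without hairpin #3 it passed, with an adjusted p of 2.78e-04. ITGA3, the laminin-binding α chain with the highest mean CPM, was between 2080 and 2294 CPM in Control, between 2381 and 2474 CPM in Soft and between 1890 and 2871 CPM in sh_PIP4K2B, and passed in no comparison of the fit over all 9 libraries. ITGA7, a laminin receptor chain best known from muscle, was called between the treated groups only, higher in Soft than in sh_PIP4K2B by 0.96 ± 0.18 (edgeR adjusted p = 0.00199), with a log2 fold change of 0.46 in Soft and -0.50 in sh_PIP4K2B against Control. The contrast lost its call without Soft library 1 (adjusted p = 0.01) and in the fit of only these 2 groups (0.0122), and the values against Control passed without hairpin #1 (0.00525 in Soft and 0.00362 in sh_PIP4K2B) and, in Soft, without hairpin #2 (0.00941).

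Of the chains that read fibronectin and related ligands, ITGA4, ITGA5 and ITGAV passed in no comparison of the fit over all 9 libraries. Their log2 fold changes in Soft were -0.63, -0.24 and -0.18. ITGA5, singled out after its values were seen, was at 2308, 2186 and 2124 CPM in Control, 1802, 1938 and 1869 CPM in Soft and 559, 2020 and 2436 CPM with hairpins #1, #2 and #3. Hairpin #1 alone lay far below Control, and the other hairpins stood near Control or above it. ITGA4, part of the α4β1 receptor for fibronectin and VCAM1, did not overlap Control in either treated group (log2 fold change -0.74 ± 0.20 in sh_PIP4K2B and -0.63 ± 0.20 in Soft, edgeR adjusted p = 0.0361 and 0.0275). Both values passed in DESeq2 (adjusted p = 0.00573 and 0.00927) and, in edgeR, without hairpin #3 (adjusted p = 9.79e-04 and 8.94e-04). Of the exonic bases of ITGA4 26.4% are shared with CERKL on the opposite strand. ITGA8 had no counts, and ITGA9 had at most 1 count in any library.

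**Figure D2:**
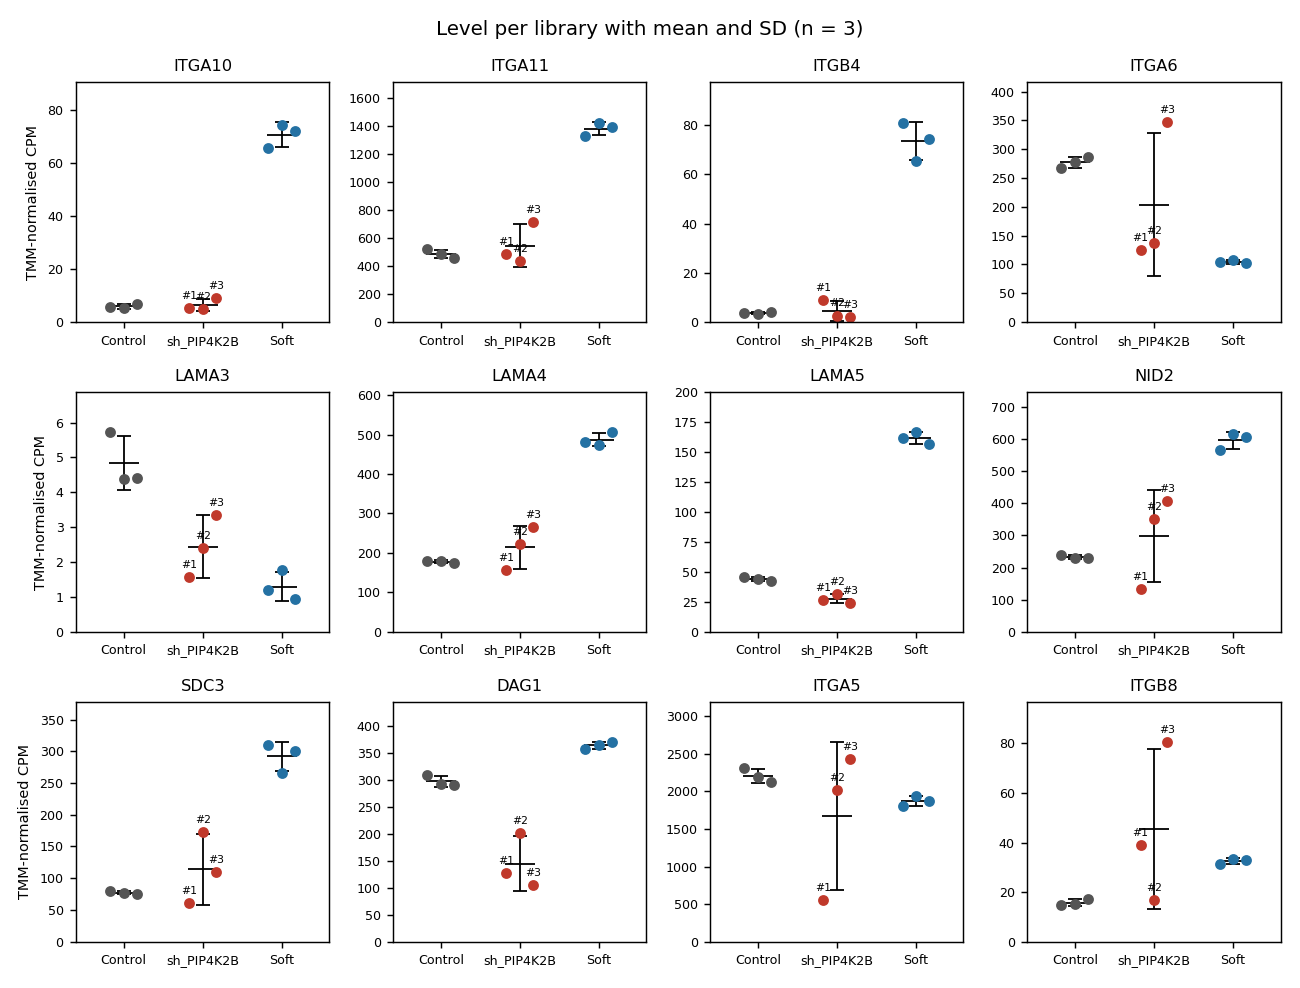
TMM-normalised CPM (vertical axes, linear from 0) of 12 genes in each library, with the mean (long bar) and SD (n = 3). Hairpin libraries are numbered. The Soft values of ITGA10, ITGB4 and LAMA5 lie apart from the other 6 libraries, and the hairpin values of ITGA5, ITGA6 and ITGB8 are spread across or beyond the Control range.

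Among the β chains, ITGB4, which pairs with ITGA6 to anchor keratin filaments at hemidesmosomes, moved opposite to its partner. ITGB4 was at 3.77, 3.20 and 3.89 CPM in Control, 8.98, 2.65 and 1.88 CPM with the hairpins and 80.7, 65.4 and 74.4 CPM in Soft. Soft stood above every other library, and the log2 fold change was 4.34 ± 0.49 against Control and 4.02 ± 0.48 against sh_PIP4K2B (edgeR adjusted p = 1.37e-04 and 2.14e-04). The level of ITGB4 per kilobase in Soft, 12.5 ± 1.30 CPM per kilobase (SD, n = 3), came near that of ITGA6, 17.9 ± 0.479, whereas in Control the values were 0.614 ± 0.0621 and 47.7 ± 1.63.

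ITGB1, the partner of most α chains, was at 3761, 3968 and 4178 CPM in Control, 2343, 4405 and 4080 CPM with the hairpins and 2809, 2694 and 2841 CPM in Soft. Its Soft libraries lay under all Control libraries, with a log2 fold change of -0.51 ± 0.22 that did not pass (edgeR adjusted p = 0.0761). The value of ITGB1 passed without hairpin #1 (edgeR adjusted p = 4.80e-04) and in the fit of only Soft and Control (1.30e-08). ITGB5, which joins αV to bind vitronectin, was higher in Soft than in sh_PIP4K2B by 0.87 ± 0.18 (edgeR adjusted p = 0.00393), with log2 fold changes against Control of 0.52 in Soft and -0.35 in sh_PIP4K2B. With the hairpins it was at 352, 579 and 577 CPM, against a Control mean of 642 CPM, and the value in sh_PIP4K2B was -0.15 without hairpin #1. Without any 1 Soft library the contrast lost its call (adjusted p 0.0156 to 0.0165). ITGB6, the epithelial partner of αV that activates latent TGF-β, was low throughout, at 1.44, 1.19 and 1.57 CPM in Control, 1.01, 0.626 and 0.742 CPM with the hairpins and 0.593, 0.762 and 0.536 CPM in Soft. Its log2 fold change in Soft was -1.147 ± 0.28 (edgeR adjusted p = 0.00889), a call lost in 10 of 16 alternatives, among them each one that left out a Control or Soft library, with adjusted p up to 0.0466, and 16.7% of its exonic bases are shared with another annotated gene on its strand. ITGB3 passed in no comparison of the fit over all 9 libraries, and between Soft and sh_PIP4K2B it passed without hairpin #1 (edgeR adjusted p = 0.00295). Of the exonic bases of ITGB3 33.2% are shared with another annotated gene on its strand. ITGB8, singled out after its values were seen, also binds latent TGF-β, and was at 14.7, 15.4 and 17.3 CPM in Control, 31.2, 33.5 and 32.9 CPM in Soft, and 39.1, 16.9 and 80.6 CPM with the hairpins. Hairpin #2 lay within the Control range, and neither change passed (log2 fold change 1.53 ± 0.43 in sh_PIP4K2B and 1.04 ± 0.43 in Soft, edgeR adjusted p = 0.0406 and 0.0730). Without hairpin #2 both passed (adjusted p = 0.00180 and 0.00741), as did the first in DESeq2 (0.00280), and the value in sh_PIP4K2B ran from 0.83 to 1.92 with 1 library left out.

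The laminin α chain defines a laminin's receptor binding. LAMA5, the α chain of the broadly expressed laminins of epithelia and vessels, was called in both comparisons against Control, in opposite directions. It was at 46.0, 44.15 and 42.2 CPM in Control, 26.9, 31.7 and 24.1 CPM with the hairpins and 162, 167 and 156 CPM in Soft. No group overlapped another. The log2 fold change was -0.68 ± 0.12 in sh_PIP4K2B (edgeR adjusted p = 0.00559) and 1.87 ± 0.12 in Soft (9.57e-06), and the direct contrast was 2.55 ± 0.12 (3.29e-06). The fall with the hairpins kept its direction in all 16 alternatives and lost the call in 8, with adjusted p up to 0.0467, among them each one that left out a Control or a Soft library. The rise in Soft and the contrast held in all 16.

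LAMA4, the α chain of laminins of vessels and mesenchymal cells, was at 180, 180 and 174 CPM in Control, 156, 223 and 265 CPM with the hairpins and 481, 475 and 506 CPM in Soft. It rose in Soft by 1.45 ± 0.17 (edgeR adjusted p = 1.97e-04) and was higher than in sh_PIP4K2B by 1.19 ± 0.17 (5.88e-04). LAMA3, the α chain of the epithelial laminin-332, moved the other way, at 5.73, 4.39 and 4.41 CPM in Control, 1.57, 2.41 and 3.36 CPM with the hairpins and 1.19, 1.76 and 0.939 CPM in Soft. It fell in Soft by 1.90 on the log2 scale (SE 0.33, edgeR adjusted p = 0.00131) in all 16 alternatives, and its value in sh_PIP4K2B was -0.99 ± 0.31 (0.0563). LAMA2, the α chain of muscle laminin, stayed at or below 1.34 CPM in every library. LAMA1 had no counts in any library.

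LAMB3, the β chain that joins LAMA3, did not pass with it. LAMB3 was at 44.4 to 47.1 CPM in Control and 46.3 to 47.9 CPM in Soft, with a log2 fold change of 0.05 ± 0.35. Among the common β chains, LAMB1, found in most laminins, was at 773, 761 and 731 CPM in Control, 564, 1032 and 575 CPM with the hairpins and 1120, 1185 and 1177 CPM in Soft, and did not pass (log2 fold change 0.62 ± 0.22 in Soft, edgeR adjusted p = 0.0407). The value of LAMB1 in Soft passed without hairpin #2 (edgeR adjusted p = 1.98e-04). It also passed with library size scaling (0.00762) and in the fit of only Soft and Control (4.81e-10). LAMB2, the β chain of synapse and kidney laminins, was higher in Soft than in sh_PIP4K2B (0.73 ± 0.18, edgeR adjusted p = 0.00846) but not called against Control (0.62 ± 0.18, 0.0175). The first call was lost without any 1 Control or Soft library or hairpin #2, with adjusted p up to 0.0339. The value of LAMB2 against Control passed in DESeq2 (adjusted p = 0.00470). LAMC1, the γ chain that nearly all laminins need, was at 1264, 1244 and 1227 CPM in Control, 568, 1473 and 1549 CPM with the hairpins and 774, 826 and 818 CPM in Soft. Its Soft libraries lay under all Control libraries without a call (log2 fold change -0.63 ± 0.31, edgeR adjusted p = 0.120). The value of LAMC1 in Soft passed without hairpin #1 (edgeR adjusted p = 8.07e-05) and in the fit of only Soft and Control (2.34e-10). LAMC3 had 3 counts in the hairpin #3 library and 0 in the others.

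NID2, which bridges laminin and type IV collagen, was at 239, 228 and 228 CPM in Control, 135, 352 and 407 CPM with the hairpins and 566, 613 and 606 CPM in Soft. Soft stood above all other libraries, while the hairpins fell on both sides of Control. The rise in Soft was 1.36 ± 0.32 (edgeR adjusted p = 0.00752), a call lost in 8 of 16 alternatives, among them each one without a Control or Soft library and the one without hairpin #2, with adjusted p up to 0.0318, and 30.7% of the exonic bases of NID2 are shared with RTRAF on the opposite strand. Whether reads were assigned by strand is not given in the sources used here. NID1 was at 108, 47.1 and 132 CPM with the hairpins, against a Control mean of 61.4 CPM, so that hairpin #2 lay below that mean and the others above it. Its fitted values were 0.80 ± 0.30 on the gel and 0.64 ± 0.30 with the hairpins, and neither passed. Without hairpin #2 both did (edgeR adjusted p = 2.77e-04 and 8.01e-04), and the hairpin value ran from 0.34 to 0.97 with 1 library left out. AGRN, which clusters receptors at synapses and binds dystroglycan, was at 927, 857 and 865 CPM in Control, 1758, 947 and 762 CPM with the hairpins and 988, 999 and 965 CPM in Soft, with no call. HSPG2 lay lower in all Soft libraries than in any Control library (log2 fold change -0.83 ± 0.28, edgeR adjusted p = 0.0333), again without a call. It passed in DESeq2 (adjusted p = 0.00868) and without hairpin #2 (edgeR adjusted p = 2.45e-04).

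DAG1, the laminin and agrin receptor that links the matrix to dystrophin, separated the treated groups. It was at 309, 293 and 291 CPM in Control, 127, 202 and 105 CPM with the hairpins and 359, 365 and 371 CPM in Soft. All hairpin libraries lay below Control and all Soft libraries above it. DAG1 was higher in Soft than in sh_PIP4K2B by 1.34 ± 0.21 (edgeR adjusted p = 8.78e-04), a call held in all 16 alternatives. Against Control neither change passed, with -1.04 ± 0.21 in sh_PIP4K2B (edgeR adjusted p = 0.0109) and 0.29 ± 0.21 in Soft (0.270). The value in sh_PIP4K2B passed in 6 of 16 alternatives, among them without hairpin #2 (3.68e-04) and without hairpin #3 (0.00928). The value in Soft passed in 1 of 16, the fit of only Soft and Control (edgeR adjusted p = 3.88e-06).

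Of the syndecans, SDC3, the large member best known from nerve and muscle, was at 80.5, 76.4 and 75.3 CPM in Control, 60.5, 172 and 110 CPM with the hairpins and 310, 266 and 300 CPM in Soft. It rose in Soft by 1.92 ± 0.30 (edgeR adjusted p = 8.80e-04). Against sh_PIP4K2B it was higher by 1.35 ± 0.30 (0.00527), a call lost without any 1 Control or Soft library or hairpin #3, with adjusted p up to 0.0201. SDC1, the epithelial member, was at 390, 360 and 356 CPM in Control, 159, 524 and 387 CPM with the hairpins and 219, 206 and 203 CPM in Soft, and did not pass (log2 fold change -0.82 ± 0.33 in Soft, edgeR adjusted p = 0.0695). The value of SDC1 in Soft passed without hairpin #1 (edgeR adjusted p = 3.26e-04) and in the fit of only Soft and Control (1.90e-10). SDC2 was lower in Soft than in sh_PIP4K2B (-0.55 ± 0.13, edgeR adjusted p = 0.00698), a call lost in 11 of 16 alternatives, among them without any 1 Control or Soft library or hairpin #2, with adjusted p up to 0.0369. SDC4, the syndecan of focal adhesions, lay below Control with every hairpin (-0.77 ± 0.19, edgeR adjusted p = 0.0244). It passed in DESeq2 (adjusted p = 0.00212) and without hairpin #1 (edgeR adjusted p = 6.96e-04). CD151, the tetraspanin that associates with the laminin-binding integrins, was at 896, 850 and 838 CPM in Control, 492, 739 and 760 CPM with the hairpins and 969, 947 and 994 CPM in Soft. It passed in no comparison of the edgeR fit over all 9 libraries, while DESeq2 called it between Soft and sh_PIP4K2B (adjusted p = 0.00304).

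**Figure D3:**
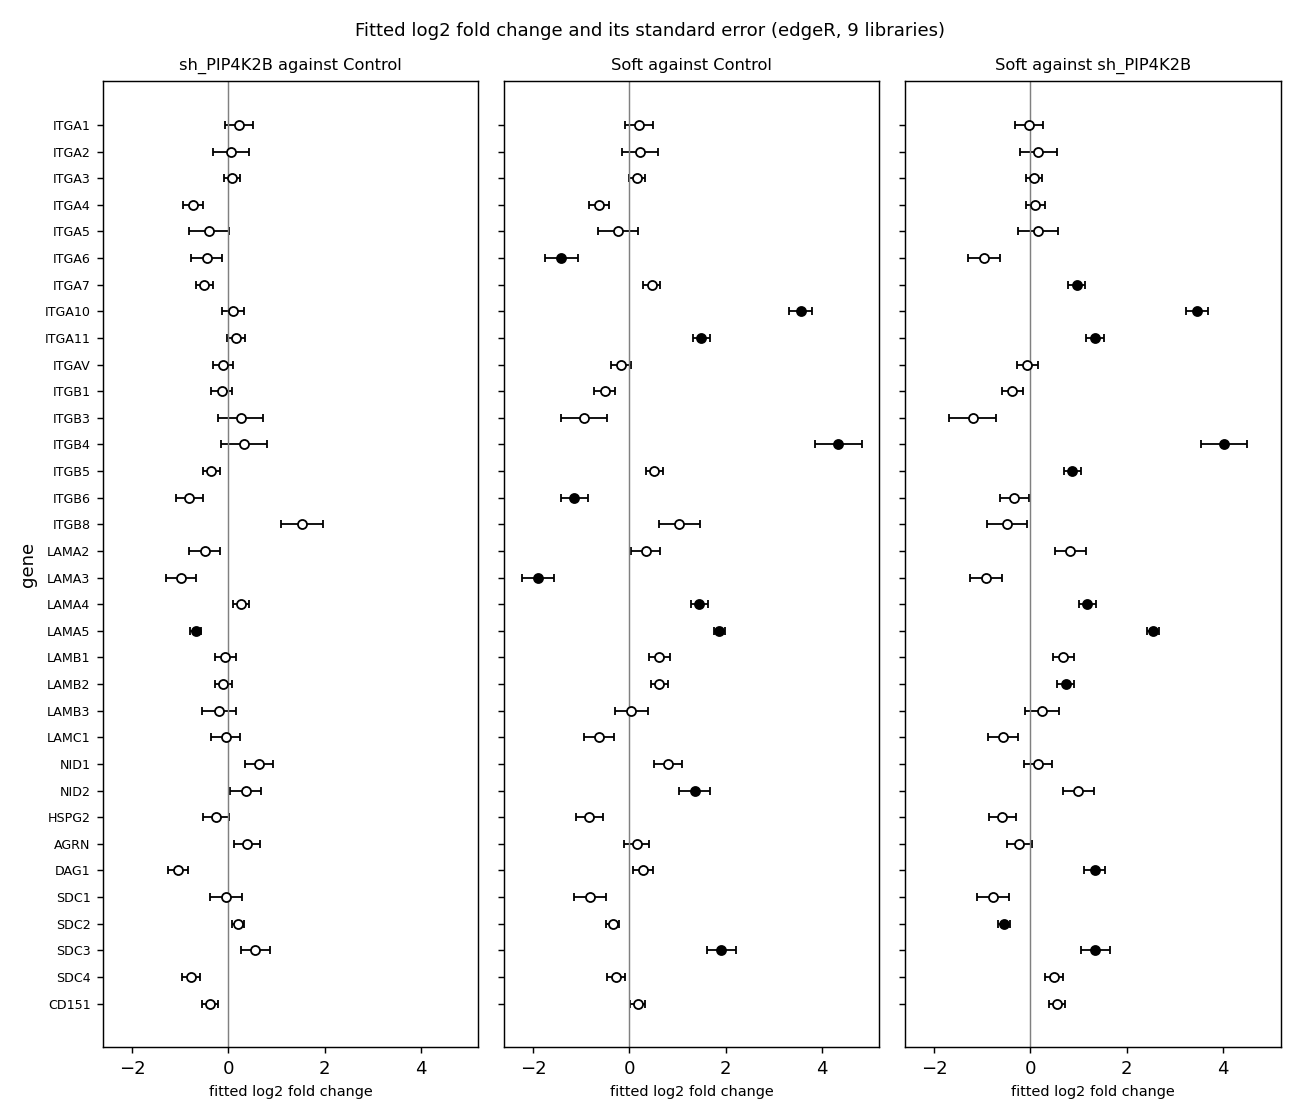
Fitted log2 fold change (horizontal axes) with its standard error for the 34 tested genes in the 3 comparisons, with filled points for genes with an edgeR adjusted p below 0.01. LAMA5 is the filled point left of 0 in sh_PIP4K2B against Control and lies right of 0 in the other panels, and DAG1 is filled in Soft against sh_PIP4K2B alone.

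The 3 hairpin libraries differed from one another in these genes, and with 1 library for each hairpin, hairpin and library cannot be told apart. The median log2 ratio to the Control mean over the 34 genes was -0.63 with hairpin #1, -0.11 with #2 and -0.06 with #3, where the medians over all genes were 0.01, 0.02 and 0.02. With hairpin #1 29 of 34 genes lay below the Control mean, with #2 19 and with #3 18. Hairpin #1 gave the lowest of the 3 values in 19 genes, or more than any other, where it did so in 36.8% of all genes. PIP4K2B was highest with hairpin #1, at 39.6% of Control, against 33.5% and 30.0% with #2 and #3. The 3 Soft libraries had medians of 0.17, 0.16 and 0.21, and over all genes 0.01, 0.02 and 0.01. These medians and counts describe a chosen group and carry no test.

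Levels of different chains were set against each other per kilobase of the canonical transcript. On this scale the summed laminin α chains went from 29.0 ± 0.663 CPM per kilobase in Control to 81.8 ± 1.87 in Soft (SD, n = 3), 2.82 times, and the laminin β chains from 192 ± 6.50 to 290 ± 8.75, 1.51 times. Nidogens went up 2.42 times, the integrin α chains 1.05 times, and the integrin β chains stood at 0.800 times the Control sum. LAMC1, not called in the fit over all 9 libraries, was at 157 ± 2.30 CPM per kilobase in Control and 102 ± 3.49 in Soft. The ratio of LAMC1 to LAMA4 was 6.38 in Control and 1.51 in Soft. It was 3.33, 6.03 and 5.33 with hairpins #1 to #3.

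Within the classes, LAMA4 was the main laminin α chain in all groups, with 84.8% of the sum in Control and 82.4% in Soft, and LAMA5 held 13.3% and 17.3%. With hairpins #1, #2 and #3 the share of LAMA5 was 9.77%, 8.20% and 5.38%. Among the β integrins, ITGB1 held 87.7% in Control, 88.7% in sh_PIP4K2B and 76.8% in Soft, and ITGB5 12.0%, 10.5% and 21.4%. With the longest annotated transcript in place of the canonical one ITGB1 held 82.6% in Control and 68.8% in Soft. Among the α chains, ITGA5 and ITGA3 led in Control with 43.0% and 36.8%. In Soft ITGA3 led with 39.1%, ITGA5 held 34.8%, and ITGA11 went from 3.98% to 10.7%. ITGA3 also had the higher mean share in sh_PIP4K2B, 45.4% against 33.9% for ITGA5. With hairpin #3 the order was that of Control, at 33.4% and 44.75%. Among the syndecans, SDC1 went from 45.2% to 29.5% and SDC3 from 5.72% to 24.8%, so that the ratio of SDC1 to SDC3 was 7.90 in Control and 1.19 in Soft. These are shares of RNA and not of protein at the surface.

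**Figure D4:**
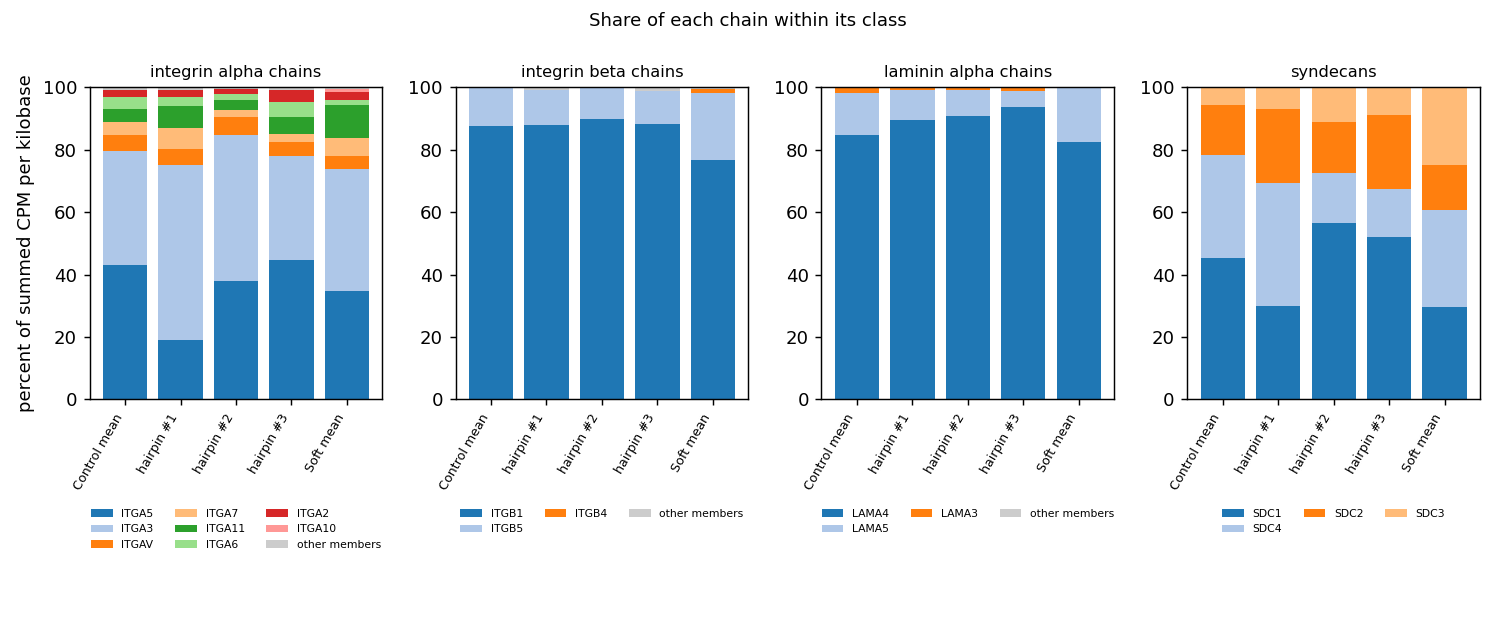
Share of each chain in its class, as percent of the summed CPM per kilobase of canonical transcript (vertical axes), for the Control mean, each hairpin library and the Soft mean. The ITGB5, ITGA11 and SDC3 segments are larger in the Soft bar than in the Control bar, and LAMA5 is smaller in each hairpin bar.

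Genes that act with these receptors were read from 8 lists, of which 113 of 144 genes were tested. In Soft against Control 31 of the 113 passed (27.4%, against 30.6% of all genes), 13 higher and 18 lower. Of the integrin activators and linkers 7 of 20 passed and all 7 called were lower, where 14.8% of all genes were called lower, with a median log2 fold change of -0.46 over the 20 and 0.01 over all genes. They were FERMT1 and FERMT2 (kindlins, which bind the β tail), LIMS2, ITGB1BP1, PXN (paxillin), RAP1B and APBB1IP, which carries active Rap1 to talin. APBB1IP was at 23.7, 24.97 and 25.8 CPM in Control and 6.70, 7.19 and 6.17 CPM in Soft (-1.89 ± 0.21, edgeR adjusted p = 1.35e-04), and FERMT1 at 7.22, 6.93 and 5.68 CPM and 1.78, 2.05 and 1.97 CPM (-1.77 ± 0.20, 1.30e-04).

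Of type IV collagens and other basement membrane proteins 5 of 16 passed (31.25%, against 30.6% of all genes), 3 higher and 2 lower. COL7A1, which anchors the membrane to the tissue below, had a log2 fold change of 2.54 ± 0.39, and BCAM, a receptor for laminin α5, of 1.27 ± 0.18 (edgeR adjusted p = 7.11e-04 and 4.44e-04). COL4A1, a chain of the main type IV collagen, was at -1.36 ± 0.28 and NTN4, which loosens the laminin network, at -1.10 ± 0.13 (0.00340 and 1.45e-04). BCAM and its ligand chain LAMA5 were thus both higher on the gel, while COL4A1 was lower there. The call of COL4A1 was lost without any 1 Control or Soft library, with adjusted p up to 0.0171. Of the dystrophin-associated proteins 3 of 10 passed (30%), SSPN (1.67) and DTNB (1.32) higher and DMD (dystrophin, -1.88) lower. Of the enzymes that glycosylate dystroglycan 2 of 16 passed (12.5%), B4GAT1 at 1.34 and TMEM5 at -0.64. The call of TMEM5 was lost without any 1 Control or Soft library, with adjusted p up to 0.0270.

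Of 22 genes that make or edit heparan sulphate, 4 passed (18.2%, against 30.6% of all genes). The sulphotransferase HS3ST1 (2.23) and the sulphatase SULF1 (0.68) were higher and XYLT1 (-1.58) and FAM20B (-0.43), which act on the linker that starts each chain, were lower. SULF1 and FAM20B lost the call without any 1 Control or Soft library, with adjusted p up to 0.0380 and 0.0497, and XYLT1 without Soft library 1 (0.0109). Of 8 glypicans and syndecan partners 4 passed (50%), GPC6 (2.55) and GPC2 (2.18) higher and GIPC1 (-0.84) and PDCD6IP (-0.63) lower. The lower pair lost the call without any 1 Control or Soft library (adjusted p up to 0.0336). Of 17 tetraspanins and their partners 5 passed (29.4%), 3 higher, led by CD82 (1.38) and PTGFRN (0.96), and 2 lower, TSPAN13 (-0.97) and TSPAN5 (-0.87). TSPAN13 lost its call without any 1 Control or Soft library or hairpin #2, PTGFRN without any but Soft library 2, and TSPAN5 without any but Control library 2, with adjusted p up to 0.0371, 0.0238 and 0.0132.

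With the hairpins 4 of the 113 passed (3.54%, against 5.54% of all genes), and all 4 were lower. NTN4 was at -1.28 ± 0.13, FERMT1 at -1.15 ± 0.19 and POMGNT2, an enzyme of dystroglycan glycosylation, at -0.83 ± 0.12 (edgeR adjusted p = 6.81e-04, 0.00492 and 0.00274). FERMT1 lost its call without any 1 Control or Soft library (adjusted p up to 0.0332), and POMGNT2 without any 1 Control library (up to 0.0190). The other gene was LIMS2, named after its values were seen. POMGNT2 was higher in Soft than in sh_PIP4K2B by 1.24 ± 0.12 (8.21e-05), which is the direction DAG1 took. In Soft against sh_PIP4K2B 28 of the 113 passed (24.8%, against 30.0% of all genes), 20 higher and 8 lower, where 14.5% and 15.5% of all genes were.

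Some markers of cell state were called as well. Over all genes 30.6% were called in Soft against Control, 15.8% higher and 14.8% lower. Of the 3 tested epithelial markers all fell in Soft, and the list summed to between 1925 and 2078 CPM in Control, between 724 and 1126 CPM in sh_PIP4K2B and between 893 and 944 CPM in Soft. Of the 8 mesenchymal markers 3 rose in Soft and the rest were not called, with a median log2 fold change of 0.025 over the list. They summed to between 36630 and 38050 CPM in Control, between 14680 and 47290 CPM in sh_PIP4K2B and between 38470 and 43880 CPM in Soft. Of the 5 tested pigment epithelium markers BEST1 and OTX2 rose in Soft, and that list summed to between 65.0 and 70.8 CPM in Control, 46.5 and 63.4 CPM in sh_PIP4K2B and 74.7 and 79.5 CPM in Soft. Of the 3 tested leukocyte and endothelial markers CD14 and PECAM1 rose in Soft. In sh_PIP4K2B against Control OTX2 was called higher, RDH5 and KRT18 were called lower, and no other tested marker was called. Over all genes 5.54% were called in that comparison. The part of these shifts in the changes of the receptor and laminin genes was not tested.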

How the data were processed

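Stranded mRNA libraries were sequenced, and the authors deposited 1 table of estimated counts per gene for the 9 libraries, neither normalised nor pooled, of which 12.3% of values were not whole numbers and were rounded here. The submitters' processing notes list STAR, Salmon and GRCh38/hg38. The role of Salmon is not given in the sources used here. The 38 genes and all lists were chosen with earlier results of these data known.

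Genes kept by filterByExpr were tested in 1 fit over the 9 libraries (edgeR 4.0.16, R 4.3.3, TMM scaling, quasi-likelihood F test), with Benjamini-Hochberg adjustment over all 13784 genes and a threshold of 0.01. Standard errors were taken from the F statistic. The script was checked on simulated data in which all groups had the same spread per gene, so that the check does not cover the uneven spread described above. Alternatives were DESeq2 1.42.0, no filter, a minimum of 10 counts throughout, upper quartile or library size scaling, a fit of only the 2 groups compared, a replicate block, leaving out each library and a threshold of 0.05. For genes of the other lists they were chosen after seeing the data. Values were printed per library for genes past the threshold with an absolute log2 fold change of at least 1, for genes called in opposite directions and for the highest of each class. In other lists, markers aside, at most 2 genes each way were given with a fold change in Soft and 1 in sh_PIP4K2B. The remaining called integrin activators and linkers were named without values. Transcript lengths and exons came from GENCODE v44, promoter windows from RefSeq. The result for 1 gene of the other lists is not reported here.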

Additional observations from a re-analysis of the deposited data

Results flagged for a closer look

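The effect of the gel on LAMA5 differed from that of the hairpins. The direct contrast of Soft with sh_PIP4K2B, which tests the difference between the 2 effects, was 2.55 on the log2 scale (edgeR adjusted p = 3.29e-06). All 3 Soft libraries lay above Control and all 3 hairpin libraries below it.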

How the results depend on the processing

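No named log2 fold change turned its direction in any alternative. Over the 88 gene and comparison pairs, 1199 values stayed on the same side of the threshold, 148 lost the call and 61 gained it. In sh_PIP4K2B against Control, where 1 of the 38 genes was called, the count was 2 with no filter, with at least 10 counts in every library and with library size scaling, 5 with DESeq2 and at a threshold of 0.05, 0 in the fit of only the 2 groups, and 0 to 6 with 1 library left out. Over all genes, of which 5.54% were called, 3.57%, 6.52% and 4.84% were called in the first 3 of these alternatives, 15.0% with DESeq2, 17.2% at 0.05, 0.0375% in the fit of only the 2 groups and 0.472% to 14.4% with 1 library left out. In Soft against Control (10) it was 30 in the fit of only the 2 groups, 17 at a threshold of 0.05, and 7 to 17 with 1 library left out, where 30.6% of all genes became 70.7%, 47.1% and 17.9% to 45.6%. In Soft against sh_PIP4K2B (11) it was 6 in the fit of only the 2 groups and 6 to 20 with 1 library left out, where 30.0% of all genes became 16.1% and 16.8% to 38.4%. For the other lists, the 4 calls in sh_PIP4K2B became 14 with DESeq2 and 0 in the fit of only the 2 groups, the 31 in Soft became 86 in the fit of only the 2 groups, and the 28 between Soft and sh_PIP4K2B became 44 with DESeq2 and 12 in the fit of only the 2 groups, where DESeq2 called 39.2% of all genes in the last comparison. With the longest transcript the share of ITGB1 was 82.6% in Control and 68.8% in Soft, and that of ITGB5 16.9% and 28.8%. Some of these fits held fewer libraries, and the cause of the moves in these counts of calls was not tested. Library size scaling moved the median of all genes in Soft against Control from 0.01 to 0.12.

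With the replicate number as a block, the counts were 0, 8 and 10 in the 3 comparisons, where 2.14%, 25.65% and 24.42% of all genes passed. Same-numbered libraries did not deviate together (Pearson r of their deviations over genes between -0.10 and 0.04). The deviations thus showed no pairing by number, which cannot exclude that libraries were paired in the experiment. The titles number the vector alike in same-numbered Control and Soft libraries. ITGA8, ITGA9, LAMA1 and LAMC3 were too low to test at this depth.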
